A study of Mus musculus with 4 samples.

Results

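Chemokine ligands and their receptors were followed in whole eyes of mice that lack both Abca4 and Rdh8, with and without a preceding light exposure. The members were all rows of the deposited expression table whose symbol begins with Ccl, Cxcl, Ccr or Cxcr followed by a digit. This gave 55 of the 22558 listed genes, namely 24 CC ligands, 13 CXC ligands, 11 CC receptors and 7 CXC receptors. A mean of at least 1 FPKM over the 4 conditions was reached by 21 of the 55, which comprised 15 ligands and 6 receptors. FPKM, the number of fragments per length of transcript and per mapped fragments of the library, is a level scaled to transcript length and library size.

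All mice were Abca4-/-Rdh8-/- and 6 weeks old. The 4 groups were eyes without light treatment (the control), and eyes collected 3 h, 24 h and 7 days after light exposure, each labelled as whole eyes of 3 mice. Abca4 is a photoreceptor transporter and Rdh8 a retinol dehydrogenase, and mice without them clear all-trans-retinal slowly after light. No group with intact Abca4 and Rdh8 was analysed here, so the values describe light exposure within this genotype alone. One value per gene and condition was deposited, so no difference below has a replicate check, and no test was run.

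Chemokines are small secreted proteins that direct the migration of leukocytes through G protein-coupled receptors. In CC chemokines the first conserved cysteines are adjacent, and in CXC chemokines they are separated by 1 residue. Some ligands, such as Ccl2, are induced by injury and inflammatory cytokines, while others, such as Cxcl12 and Cxcl14, are made constitutively by stromal and epithelial cells. In the injured retina, Müller glia, microglia and the pigment epithelium are known sources of Ccl2, and monocytes that carry Ccr2 are recruited by it.

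The tissue label reads whole eye although the extraction protocol speaks of retinas. Lens genes took 20.8% to 24.8% of all FPKM and 15 rod genes 1.54% to 2.56%, so lens and retina were both present. Abca4 itself was listed at 34.3 to 56.3 FPKM and Rdh8 at 10.5 to 14.2 FPKM, values for whole genes that do not check the deletions. Y-linked transcripts (4 genes) summed to 18.5 FPKM at 7 days, and to at most 0.0189 FPKM in the other conditions. Male tissue was therefore sampled at 7 days. The female transcript Xist was at 37.1 FPKM there, against 47.2 without light, 53.8 after 3 h and 53.8 after 24 h, so female tissue was sampled too. The mix of sexes and time cannot be told apart in any comparison with the 7-day sample. From genes seen in a single condition, 1 FPKM over 1 kb of transcript was estimated to rest on about 25.1 fragments without light, 23.1 after 3 h, 32.1 after 24 h and 42.8 after 7 days. Fragment numbers and intervals given below follow from this estimate. They cover counting error only, not the spread between animals.

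Several promoters of the family hold letters that match motifs of inflammatory transcription factors. Those of Cxcl10, Cxcl1, Cxcl2 and Ccl12 are shown because the first 2 and the last belong to ligands that were higher at 24 h. Cxcl2, which lies in the same chromosomal cluster as Cxcl1 and differed little, was chosen for contrast after its values were seen. Each sequence runs 5′ to 3′ on the strand of the gene, from 250 bases before to 50 bases after the start site, and is taken from RefSeq on GRCm38.p6. The deposited values were made on mm9, so these coordinates do not apply to them. Capitals mark matches, on either strand, to 4 motifs. The NF-κB motif, bound by Rel family factors, was GGG, 2 free bases, TT, 1 free base and CC. The interferon-stimulated response element was GAAA, 2 free bases and GAAA. The STAT motif was TTC, 3 free bases and GAA, and the AP-1 motif, bound by Fos and Jun, was TGA, 1 free base and TCA.
Cxcl10 (chr5:92348840-92349139, minus strand): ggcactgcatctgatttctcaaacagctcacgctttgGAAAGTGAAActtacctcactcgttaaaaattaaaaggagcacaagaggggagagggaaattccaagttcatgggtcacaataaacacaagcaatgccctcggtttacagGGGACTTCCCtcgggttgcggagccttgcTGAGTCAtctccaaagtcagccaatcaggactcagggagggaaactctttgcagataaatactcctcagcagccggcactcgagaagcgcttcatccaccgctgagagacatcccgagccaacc
Cxcl1 (chr5:90890995-90891294, plus strand): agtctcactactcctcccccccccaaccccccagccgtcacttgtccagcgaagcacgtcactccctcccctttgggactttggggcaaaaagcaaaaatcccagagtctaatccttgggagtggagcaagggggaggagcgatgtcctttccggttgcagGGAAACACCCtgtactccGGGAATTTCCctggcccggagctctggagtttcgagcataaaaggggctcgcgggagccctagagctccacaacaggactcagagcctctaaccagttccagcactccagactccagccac
Cxcl2 (chr5:90903649-90903948, plus strand): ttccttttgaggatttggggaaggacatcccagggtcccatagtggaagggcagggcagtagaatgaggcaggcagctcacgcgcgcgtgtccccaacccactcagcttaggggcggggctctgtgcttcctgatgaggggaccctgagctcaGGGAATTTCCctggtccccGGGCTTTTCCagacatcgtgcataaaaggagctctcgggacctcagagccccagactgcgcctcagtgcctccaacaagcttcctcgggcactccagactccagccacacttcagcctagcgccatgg
Ccl12 (chr11:82101595-82101894, plus strand): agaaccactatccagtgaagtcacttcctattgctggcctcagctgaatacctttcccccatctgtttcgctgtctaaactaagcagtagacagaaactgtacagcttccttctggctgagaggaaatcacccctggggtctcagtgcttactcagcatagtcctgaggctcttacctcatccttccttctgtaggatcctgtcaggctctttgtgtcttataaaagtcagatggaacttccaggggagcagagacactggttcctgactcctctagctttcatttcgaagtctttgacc
The Cxcl10 window held 1 interferon element, 1 NF-κB match and 1 AP-1 match. Both Cxcl1 and Cxcl2 held 2 NF-κB matches, of which GGGAATTTCC was common to both. None of the 4 motifs was found in the Ccl12 window, which says only that these letters are absent there. Among all 32851 RefSeq promoters of 300 bases, 4.79% held the NF-κB motif, 3.44% the interferon element, 8.30% the STAT motif and 7.81% the AP-1 motif. Promoter entries matched 39 of the 55 members (46 promoters), and of these 46 the NF-κB motif was in 10, the interferon element in 3, the STAT motif in 4 and the AP-1 motif in 10. Only 14 of these members have a mean of at least 1 FPKM. Of their 17 promoters the NF-κB motif was in 2, the interferon element in 2, the STAT motif in 1 and the AP-1 motif in 3. Ccl2, Cxcl5, Ccl7, Ccl4 and Ccl11 had no entry.

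Levels of the 21 members spanned a wide range, and 4 ligands made up most of the family's signal. Means over the 4 conditions were 27.9 FPKM for Cxcl12, 24.3 for Ccl27a, 17.2 for Cxcl14 and 12.8 for Ccl3. Cxcr7, a scavenging receptor for Cxcl12, was the receptor with the highest mean, at 8.84 FPKM, and Cxcl16, a membrane-bound ligand, had a mean of 7.67 FPKM. The other 15 members had means between 1 and 5 FPKM. Without their highest value, 4 of the 21 would average below 1 FPKM. Near the margin of the selection lay Cxcr6 (mean 1.05 FPKM) inside and the neutrophil receptor Cxcr2 (mean 0.881 FPKM) outside. Summed over all 55 members, FPKM was 134.3 without light, 130.2 after 3 h, 152.6 after 24 h and 149.7 after 7 days.

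**Figure D1:**
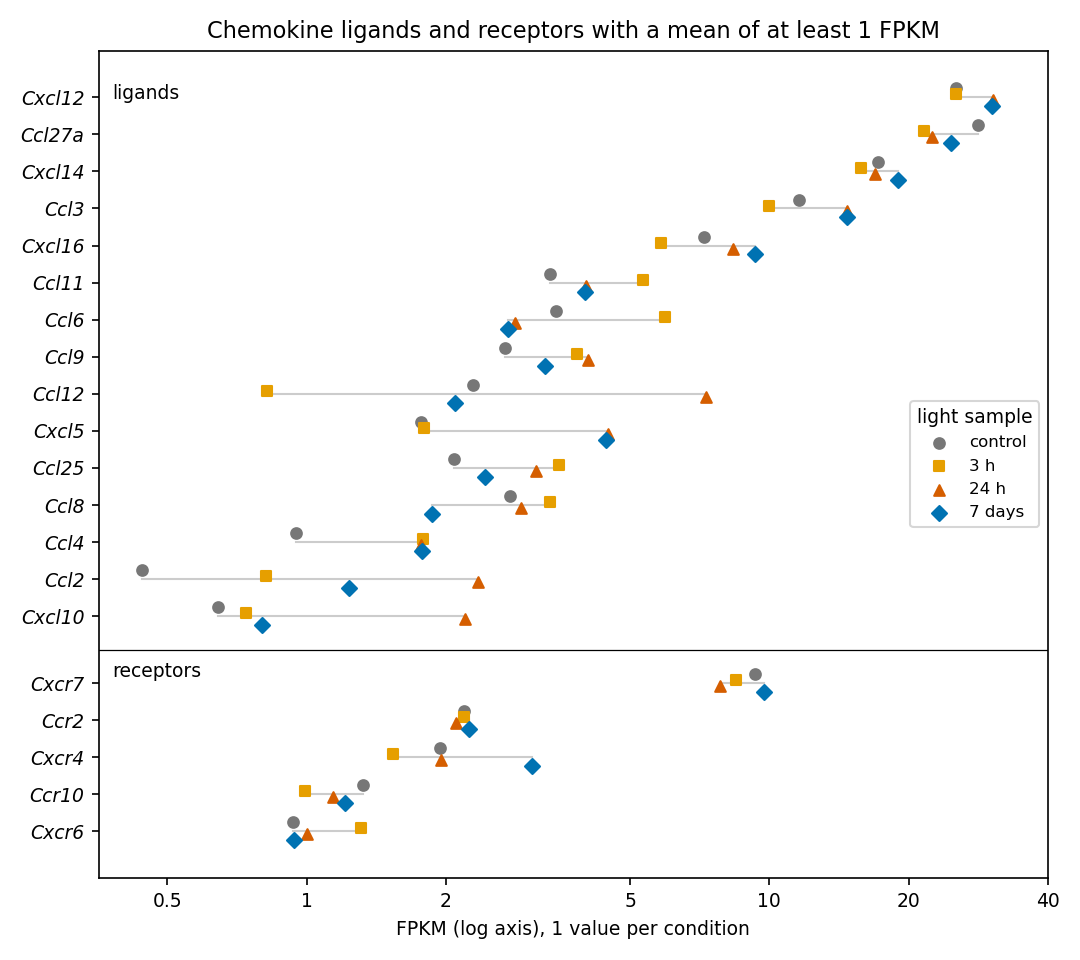
FPKM on a log axis for 15 ligands and 5 receptors with a mean of at least 1 FPKM, with 1 point per condition and a grey line from the lowest to the highest value of a gene. Ccl12 spans 0.820 to 7.29 FPKM and Ccl2 0.439 to 2.35 FPKM, while Ccr2 stays between 2.10 and 2.24 FPKM.

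Changes were expressed as log2 of the ratio of (FPKM + 1), so that ratios of genes near or under 1 FPKM come out smaller than they are, and a gene was called higher or lower at a log2 change of at least 1 in size. Plain FPKM ratios are given as folds. At 24 h against the control, 2 of the 21 members were called higher, Ccl12 and Ccl2, and none lower, whereas 0.747% of the 14194 genes with a mean of at least 1 FPKM were called higher and 0.359% lower. At 3 h and at 7 days against the control none of the 21 was called in either direction. Of the 2 called at 24 h, Ccl2 has a mean of 1 FPKM only with its 24 h value, the other 3 conditions averaging 0.831 FPKM, so its call is a description and is not read against the share of all genes. Over all genes, 0.55% were called higher and 0.24% lower at 3 h, and 0.409% and 0.19% at 7 days. The median log2 change of the 21 members was 0.00092 at 3 h, 0.19 at 24 h and 0.16 at 7 days. Over all genes it was 0.016, 0.0052 and 0.0025. Each member median includes genes that have a mean of 1 FPKM only with their value at that time. Ccl2 and Cxcl10 (0.728 FPKM in the other 3 conditions) are such genes at 24 h. The medians are therefore a description and are not read against those of all genes. Medians without the filter are given below. These 3 comparisons share the control sample.

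On the plain ratio the count was larger. A ratio of at least 2 was reached at 24 h by 4 of 21 members, Ccl2, Cxcl10, Ccl12 and Cxcl5, against 0.913% of all genes with both values above 0, and none was at most 0.5 of the control (0.623% of all genes). At 7 days it was reached by 2 of 21, Ccl2 and Cxcl5, against 0.453% of all genes, and none was lower by that rule (0.184%). At 3 h, 1 of 21 members, Ccl12, was at most 0.5 of the control, against 0.318% of all genes, and none was at least 2-fold higher (0.686%). The 15 members with a mean between 1 and 5 FPKM can be read beside all 3697 genes of that band, of which 1.68% were at least 2-fold higher at 24 h by the plain ratio, as were 4 of the 15. Ccl2 and Cxcl10, which are in both of these counts at 24 h, have a mean of 1 FPKM only with their high 24 h value (Cxcl10 averaged 0.728 FPKM in the other 3 conditions). This leaves Ccl12 and Cxcl5 as the members at least 2-fold higher at 24 h whose selection did not rest on that value.

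**Figure D2:**
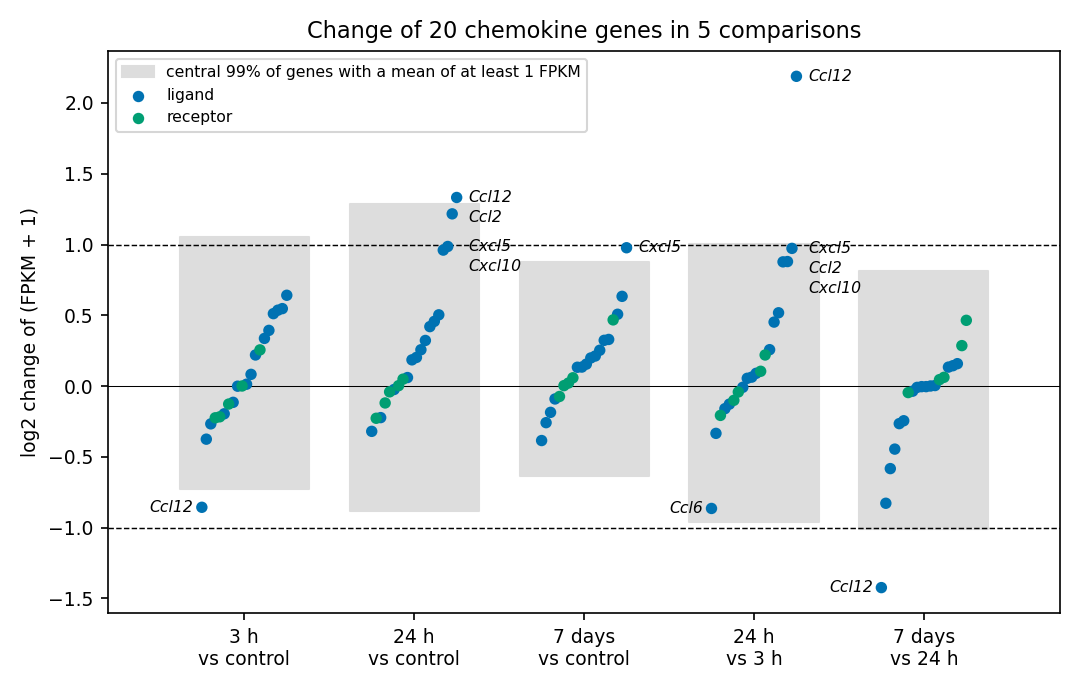
Log2 change of (FPKM + 1) for 20 of the 21 members in 5 comparisons, with grey boxes for the central 99% of all genes with a mean of at least 1 FPKM and dashed lines at the threshold of 1. Ccl12 lies at 1.33 at 24 h against the control and at 2.19 at 24 h against 3 h, and no receptor shown passes the threshold in any of the 5 comparisons.

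Among the monocyte-attracting CC ligands, Ccl12 and Ccl2 were higher at 24 h. Ccl2, Ccl7, Ccl8 and Ccl12 summed to 6.20 FPKM without light, 5.50 after 3 h, 13.8 after 24 h and 6.07 after 7 days. Ccl12, a mouse ligand of Ccr2, was at 2.29 FPKM without light, 0.820 after 3 h, 7.29 after 24 h and 2.09 after 7 days, on about 31, 10, 126 and 48 fragments. The 24 h value stood above all others and the 3 h value below all others. At 24 h Ccl12 was 3.18-fold higher than in the control (95% counting interval 2.13 to 4.87). It was 67th from the top of the 14194 genes ordered by log2 change. At 3 h it was at 0.357 of the control (interval 0.153 to 0.733), with a log2 change of -0.86 that did not reach the threshold.

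Ccl2, the principal ligand of Ccr2, was at 0.439 FPKM without light, 0.818 after 3 h, 2.35 after 24 h and 1.23 after 7 days. The 24 h value was the highest and the control the lowest, and the control value rested on about 9 fragments. Ccl2 was 5.34-fold higher at 24 h than in the control (interval 2.62 to 12.1), with a log2 change of 1.22. At 7 days it was 2.81-fold higher than in the control (interval 1.35 to 6.53), with a log2 change of 0.63. Ccl7, another Ccr2 ligand with a mean below 1 FPKM, was at 0.723 FPKM without light, 0.503 after 3 h, 1.29 after 24 h and 0.873 after 7 days. Its interval at 24 h against the control (0.908 to 3.41) included 1. Ccl8, which in the mouse acts on Ccr8, was at 2.75, 3.36, 2.91 and 1.87 FPKM in the same order, with its highest value at 3 h. It rested on about 35, 40, 48 and 41 fragments. Its counting intervals included 1 at 3 h against the control (0.769 to 2.01) and at 24 h against 3 h (0.556 to 1.35).

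These 4 genes lie next to each other on chromosome 11 together with Ccl11 and Ccl1, in the order Ccl2, Ccl7, Ccl11, Ccl12, Ccl8 and Ccl1 on GRCm38.p6. Ccl11, an eosinophil attractant, had a profile of its own, at 3.36 FPKM without light, 5.32 after 3 h, 4.02 after 24 h and 4.01 after 7 days. Ccl1 was listed at no more than 0.0902 FPKM. Highest values within the cluster were thus listed at 24 h for Ccl2, Ccl7 and Ccl12 and at 3 h for Ccl11 and Ccl8. For Ccl8, and for Ccl7 against the control, the counting intervals included 1, so the time of their highest value is uncertain.

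**Figure D3:**
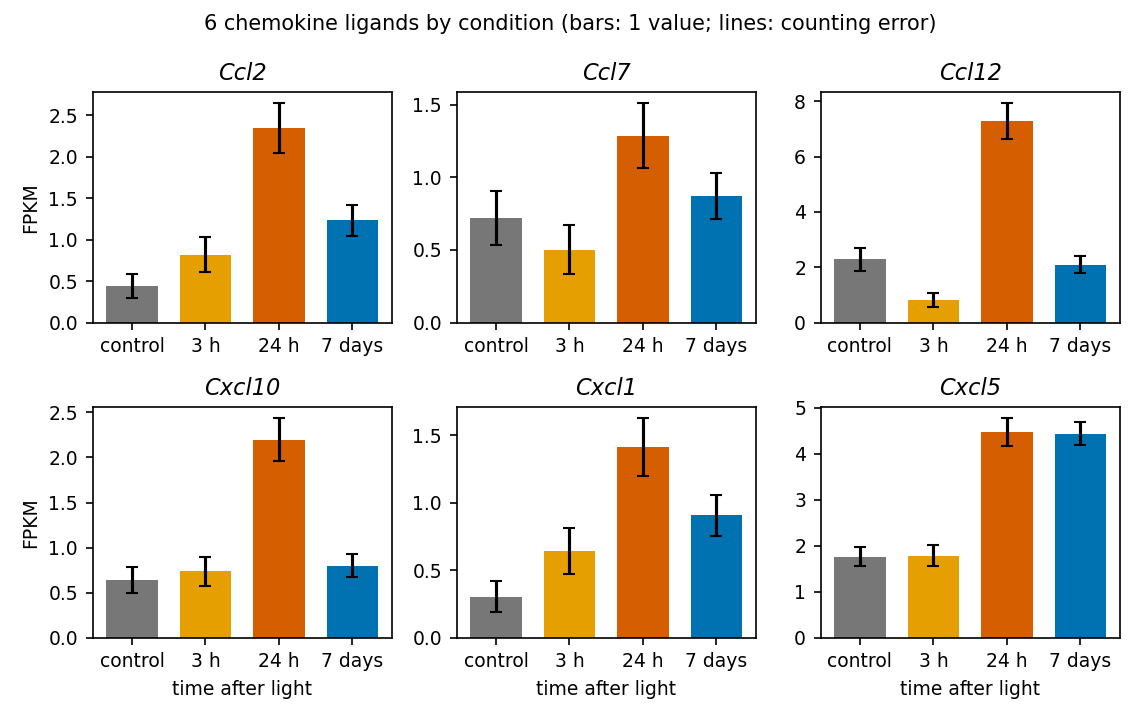
FPKM of 6 inducible ligands in each condition (bars, 1 value each), with lines for 1 standard deviation of the estimated counting error. Ccl2, Ccl7, Ccl12, Cxcl10 and Cxcl1 have their highest value at 24 h, and Cxcl5 is at 4.47 FPKM at 24 h and 4.44 at 7 days.

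Among the CXC ligands, Cxcl10 and the neutrophil attractants Cxcl5 and Cxcl1 were higher at 24 h without reaching a log2 change of 1. Cxcl10, an interferon-induced ligand of Cxcr3, was at 0.642 FPKM without light, 0.740 after 3 h, 2.197 after 24 h and 0.801 after 7 days. Only the 24 h value stood apart, 3.42-fold above the control (interval 2.05 to 5.78; log2 change 0.96). Art3, which overlaps Cxcl10 in the annotation, was lower at 24 h (10.6 FPKM, against 13.7 FPKM in the control). The related ligands Cxcl9 and Cxcl11 were listed at no more than 0.162 and 0.261 FPKM.

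Cxcl5, a ligand of Cxcr2, was at 1.76 FPKM without light, 1.79 after 3 h, 4.47 after 24 h and 4.44 after 7 days. The values thus fell into a low pair and a high pair, with 2.54-fold between 24 h and the control (interval 1.92 to 3.35) and 2.52-fold between 7 days and the control (interval 1.92 to 3.29). Its log2 changes of 0.99 and 0.98 lay just under the threshold. Cxcl1, a further ligand of Cxcr2 with a mean below 1 FPKM, was at 0.305 FPKM without light, 0.644 after 3 h, 1.41 after 24 h and 0.907 after 7 days. It was 4.63-fold higher at 24 h than in the control (interval 2.14 to 12.7), on about 43 fragments at 24 h and 7 in the control. Cxcl2, whose promoter shares a motif with that of Cxcl1, was at 0.382, 0.260, 0.460 and 0.375 FPKM.

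Other inflammatory CC ligands differed less. Ccl3, a macrophage product that acts on Ccr1, was at 11.6 FPKM without light, 9.99 after 3 h, 14.7 after 24 h and 14.8 after 7 days. At 24 h and at 7 days it was 1.27-fold higher than in the control, with counting intervals of 1.08 to 1.51 and 1.09 to 1.501. Ccl4, its neighbour and close relative, was far less abundant, at 0.9504, 1.78, 1.77 and 1.77 FPKM, so that the 3 light samples were alike and the control lowest. The control value rested on about 16 fragments. Counting intervals against it included 1 at 3 h (0.952 to 3.64) and at 24 h (0.981 to 3.48), and ran from 1.03 to 3.44 at 7 days. The ratio of Ccl3 to Ccl4, both per length, was 5.61 to 8.35 after light, against 12.2 in the control, where it depends on those few Ccl4 fragments. The 2 genes overlap in the RefSeq annotation, so the split of fragments between them is uncertain.

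Ccl6, a mouse ligand of Ccr1, was highest at 3 h, with 3.45 FPKM without light, 5.95 after 3 h, 2.82 after 24 h and 2.72 after 7 days. Its fold at 3 h against the control was 1.72 (interval 1.37 to 2.17), and at 24 h against 3 h it was at 0.474 (interval 0.376 to 0.593). Ccl9, also a Ccr1 ligand, was at 2.68, 3.84, 4.06 and 3.27 FPKM. Ccl5, a T cell product with a mean below 1 FPKM, was at 0.725, 1.12, 0.755 and 0.720 FPKM, on 10 to 16 fragments a sample. In the annotation Ccl6 overlaps E230016K23Rik and Ccl5 overlaps Gm32650.

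The ligands known for constitutive expression included the 3 most abundant members. Cxcl12, the ligand of Cxcr4 and Cxcr7, was at 25.3 FPKM without light, 25.3 after 3 h, 30.5 after 24 h and 30.4 after 7 days. Cxcl14, an epithelial chemokine, was at 17.2, 15.8, 16.9 and 19.0 FPKM, a range of 1.20-fold. Ccl27a, a skin-associated ligand of Ccr10, was highest in the control, at 28.3 FPKM, with 21.6, 22.5 and 24.8 FPKM in the samples after light. Ccl27a overlaps Il11ra1 (25.3 to 30.6 FPKM) and has a near-identical copy, Ccl27b, which was listed at 0 throughout, so its level is uncertain. Cxcl16, the ligand of Cxcr6, was at 7.21, 5.82, 8.34 and 9.32 FPKM. It overlaps Zmynd15, which was less abundant (0.771, 0.679, 1.06 and 1.19 FPKM). Ccl25, a ligand of Ccr9 known from thymus and gut, was at 2.08, 3.51, 3.13 and 2.43 FPKM, with the control lowest. Ccl25 overlaps LOC108167518 in the annotation.

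Ccr2, the receptor of Ccl2, Ccl7 and Ccl12, was the most even of the 21 members, at 2.19 FPKM without light, 2.19 after 3 h, 2.10 after 24 h and 2.24 after 7 days. Cxcr4 was at 1.94, 1.53, 1.95 and 3.07 FPKM, and at 7 days it was 1.58-fold higher than in the control. That was the largest fold in that comparison among the 6 receptors with a mean of at least 1 FPKM. Cxcr7, the second receptor of Cxcl12, was at 9.33, 8.46, 7.83 and 9.76 FPKM. Cxcr6, which is carried by T cells, was at 0.935, 1.31, 1.00 and 0.940 FPKM. Ccr10 was at 1.32, 0.989, 1.14 and 1.21 FPKM. Ccr10 overlaps Cntnap1 and Cxcr6 overlaps Fyco1, both more abundant, and the sources used here do not give the strand setting of the counting.

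Successive samples were compared directly, which leaves out the control but shares the 24 h value. At 24 h against 3 h, Ccl12 was called higher (8.90-fold, interval 4.77 to 19.4; log2 change 2.19) and no member lower, against 0.514% and 0.437% of all genes. Cxcl10 was 2.97-fold, Ccl2 2.87-fold and Cxcl5 2.50-fold higher, with log2 changes of 0.88, 0.88 and 0.97. By the plain ratio 4 of 21 members were thus at least 2-fold higher and 1, Ccl6, at most 0.5 of the 3 h level, against 0.587% and 0.602% of all genes. Of those higher, Ccl2 and Cxcl10 have a mean of 1 FPKM only with their 24 h value. That leaves Ccl12 and Cxcl5 as the higher members whose selection did not rest on it. At 7 days against 24 h, Ccl12 was called lower, at 0.287 of the 24 h level (interval 0.2003 to 0.401), and no member higher, against 0.514% and 0.296% of all genes called lower and higher. Cxcl10 was at 0.365 and Ccl2 at 0.526 of the 24 h level, while Cxcl5 was at 0.992. By the plain ratio 2 of 21 members, Ccl12 and Cxcl10, were lower at 7 days and none higher, against 0.58% and 0.403% of all genes. The selection of Cxcl10 rested on its high 24 h value here too, so only Ccl12 can be read beside that share. Among the ligands high at 24 h, Ccl12 and Cxcl10 were thus back near the control value at 7 days, while Ccl2, Cxcl1 and Cxcl5 were 2.81, 2.97 and 2.52 times the control.

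Below a mean of 1 FPKM lay 34 members, 22 ligands and 12 receptors. Of these, 3 reached 1 FPKM in a single condition (Cxcl1, Ccl5 and Ccl7, described above). A further 6 were listed at 0 in all 4 conditions, namely Ccl19, Ccl20, Ccl21b, Ccl21c, Ccl26 and Ccl27b. Ccl21b, Ccl21c and Ccl27b have near-identical copies, so their values of 0 are uncertain. The receptors below the mean were Ccr1, Ccr1l1, Ccr3, Ccr4, Ccr6, Ccr7, Ccr8, Ccr9, Cxcr1, Cxcr2, Cxcr3 and Cxcr5.

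Further genes of the chemokine system were read from a fixed list. In that list of further ligands, receptors and binding partners, 11 of the 16 genes found had a mean of at least 1 FPKM, and none of the 11 was called at 3 h, 24 h or 7 days, when 0.55%, 0.747% and 0.409% of all genes were called higher, so lists this short say little by their counts. Cx3cl1, the neuronal ligand of the microglial receptor Cx3cr1, was at 20.9 FPKM without light, 19.3 after 3 h, 21.2 after 24 h and 21.9 after 7 days. Cx3cr1 was at 3.79, 2.33, 3.16 and 6.66 FPKM, lowest at 3 h and highest at 7 days. Darc, a scavenger of inflammatory chemokines on venules and red cells, ranged from 11.7 to 14.6 FPKM. The 16 receptor signalling genes and the 12 leukocyte adhesion genes also had 0 calls, against the same shares of all genes. Vcam1, an endothelial adhesion molecule, was at 6.81, 7.82, 10.95 and 9.55 FPKM.

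Of 25 upstream inducers and transcription factors with a mean of at least 1 FPKM, 3 were called higher and 1 lower at 24 h (0.747% and 0.359% of all genes). At 3 h 1 of them, Lif, was called higher (0.55% of all genes). Lif was at 0.409, 2.84, 1.05 and 0.393 FPKM, and has a mean of 1 FPKM only with its 3 h value. None was called at 7 days (0.409% of all genes higher and 0.19% lower). Among those called at 24 h, Stat3 was at 54.2 FPKM (20.4 in the control) and Osmr at 22.7 (6.33). Tnfaip3, an inhibitor of NF-κB signalling, was lower at 21.4 (45.6). Of the NF-κB subunits, Relb was at 5.39 FPKM at 24 h, against 3.34 in the control, Nfkb2 at 5.69, against 4.43, Rela at 15.3, against 13.4, and Nfkb1 at 13.0, against 13.3. None of these 4 was called. The cytokines Tnf (1.76, against 1.47) and Il1b (0.615, against 0.388) were low, and Ifng was listed at no more than 0.0235 FPKM in any condition. Il1b was highest at 7 days, at 0.974 FPKM (2.51-fold the control).

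Cell type markers were read beside the chemokines, and in bulk tissue fewer cells of a type and less RNA per cell cannot be told apart. Summed FPKM of 15 reactive glia genes, Stat3 and Osmr among them, was 926.3 without light, 1647 after 3 h, 1842 after 24 h and 1158 after 7 days. The metallothioneins Mt1 and Mt2 made up 1169 FPKM of the 3 h sum, and the other 13 genes summed to 440.7, 477.9, 952.1 and 522.4 FPKM, highest at 24 h. Ccl2, Ccl9, Ccl12, Cxcl5, Cxcl10 and Cxcl12 also had their highest value at 24 h, some by little. The sum of 22 microglia and macrophage genes was 255.7, 293.2, 276.9 and 500.3 FPKM, highest at 7 days together with Cx3cr1. Of the members with values given above, Ccl3, Cxcl14, Cxcl16, Ccr2, Cxcr4 and Cxcr7 were also highest at 7 days, some by little. Of these 22 genes, 8 were called higher at 7 days and none at 24 h, against 0.409% and 0.747% of all genes. Neutrophil genes (10 found, 4 with a mean of at least 1 FPKM) summed to 5.66, 7.11, 9.30 and 12.4 FPKM. S100a8 and S100a9 were the highest of them at 24 h and 7 days, and at 7 days were at 3.05 and 3.94 times the control. Camp, Csf3r and Mmp8 were also higher at 7 days than in the control. Ltf, Ngp and Retnlg were lower, at 0.973, 0.767 and 0.266 times the control, with Ngp and Retnlg below 1 FPKM throughout. Ly6g was not among the genes found, and Mpo and Elane were at or near 0. Whether neutrophil numbers differed was not tested. The 12 T and NK cell genes found were all below a mean of 1 FPKM and summed to 2.17, 2.16, 2.25 and 2.69 FPKM. The 6 monocyte genes found summed to 59.2, 91.9, 75.6 and 58.9 FPKM, nearly all of it Plac8 (57.9, 91.1, 74.8 and 58.0 FPKM), and Ly6c2 was at 0.308 FPKM at 24 h, against 0.459 in the control. The 9 adipocyte genes summed to 28.3, 78.0, 42.6 and 27.0 FPKM, highest at 3 h. The sum of surface epithelium genes was 4446, 5578, 5307 and 5478 FPKM, highest at 3 h by little among the samples after light. Sums of skeletal muscle (3017 FPKM) and erythroid genes (90.8) were highest at 3 h too. Ccl4, Ccl6, Ccl8, Ccl11, Ccl25 and Cxcr6 also had their highest values in that sample, some by little. Fibroblast and stroma genes summed to 2278 FPKM without light, 1685 after 3 h, 1626 after 24 h and 2043 after 7 days. Skeletal muscle genes summed to 1796 FPKM at 24 h, against 2705 in the control. The part of these differences in the chemokine values was not tested.

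**Figure D4:**
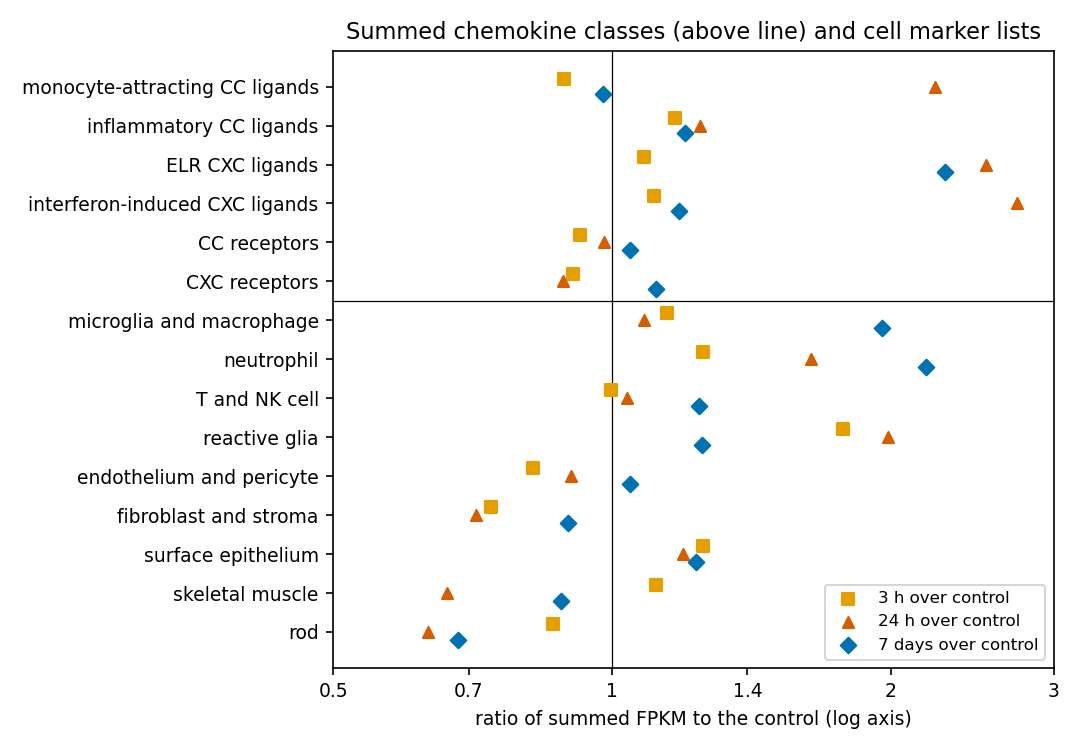
Summed FPKM after light divided by the control sum (log axis), for 6 chemokine classes above the line and 9 cell marker lists below it, with 1 point per time. The monocyte-attracting, ELR CXC and interferon-induced ligands are at 2.23, 2.54 and 2.74 times the control at 24 h, where Ccl12 and Ccl2, Cxcl5, and Cxcl10 hold most of each sum (Ccl8 was at 1.06 and Cxcl9 at 0.331 times the control), and the microglia and macrophage list at 1.08 times at 24 h and 1.96 times at 7 days.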

How the data were processed

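RNA from whole eyes was sequenced in 4 conditions, each labelled as eyes of 3 mice. The tools were Cuffdiff 2.2.1, TopHat2 (version given as 2) and bcl2fastq 1.8.3 with the build mm9, per the submitters' processing notes. The deposited values are FPKM, 1 column per condition. The sources used here do not give the annotation, the strand setting, the treatment of multiply mapping fragments, or whether a column is a pool or a mean of libraries. FPKM summed to between 626973 and 680305 per condition, and a few abundant transcripts can move all other values.

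Members were matched by symbol pattern, and all 55 matched RefSeq names or synonyms. Changes were computed in Python 3.11.15 (pandas 2.3.3, scipy 1.17.1) as log2 of (FPKM + 1) ratios over genes with a mean of at least 1 FPKM, and the call rule was tested on simulated data. Every member with that mean, and any other that reached 1 FPKM in a condition, is named with its values, except that single values of a few genes are not reported here; counts, sums and medians include them. Other members are given by count and name, and exceptions are marked in the text. Members, lists and rules were chosen with earlier results of these data known.

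Fragment numbers were estimated as FPKM times transcript length (GENCODE M21, protein-coding transcripts that differ by at most 1.5-fold in length) divided by the median of that product over genes above 0 in a single condition with 1 coding transcript (56, 40, 57 and 70 genes in time order). Some of these genes may hold more than 1 fragment, so the numbers are approximate. Intervals of a fold are exact binomial (Clopper-Pearson, 95%) on the rounded fragment numbers. Alternatives were a pseudocount of 0.1 FPKM, no filter, a mean of at least 5 FPKM, and rescaling by the median ratio or to an equal sum once genes of lens, muscle, erythroid cells and surface epithelium were set aside. After seeing the data, a plain ratio of 2 was added, and so was an equal sum with small RNAs set aside too.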

Additional observations from a re-analysis of the deposited data

Results flagged for a closer look

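Ccl12 moved in opposite directions at 2 times against the same control, with a log2 change of (FPKM + 1) of -0.86 at 3 h and of 1.33 at 24 h. It was the only one of the 21 members with changes of at least 0.5 in both directions. Each value is 1 sample on about 10 and 126 fragments, against about 31 in the control, and the difference was not tested.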

How the results depend on the processing

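No paired analysis was possible because each condition has 1 value and no replicate numbers. Every call named above kept its direction and its side of the threshold under each alternative that kept the gene. A mean of at least 5 FPKM left 6 members, Ccl2 and Ccl12 not among them, and gave 0 calls higher at 24 h against the control or against 3 h and 0 lower at 7 days against 24 h. Both a pseudocount of 0.1 FPKM and the plain ratio gave 4 members higher at 24 h and 2 at 7 days against the control, 1 lower at 3 h, 4 higher and 1 lower at 24 h against 3 h, and 2 lower at 7 days against 24 h. The selection of Ccl2 and Cxcl10, which are among the 4 at 24 h, rested on their 24 h value. Shares of all genes by the plain ratio are given above. None was worked out for the other alternatives, so their counts are not read as a result about the members. Rescaling to an equal sum without genes of lens, muscle, erythroid cells and surface epithelium, which shifted plain log2 FPKM by between -0.18 (3 h) and -0.066 (24 h), and log2 changes of (FPKM + 1) by less for low genes (Ccl12 at 3 h was -0.93), left 19 members and gave 2 higher at 24 h against 3 h, Cxcl5 (log2 change 1.03) being added to Ccl12. The median of the members was -0.12 at 3 h under that rescaling. With the mean of at least 5 FPKM it was -0.16 at 3 h, 0.081 at 24 h and 0.14 at 7 days against 24 h. Without a filter, over all 55 members, it was 0.027 at 24 h and 0.021 at 7 days. Depth limits the members near 1 FPKM, where Ccl2 and Cxcl1 rest on 9 and 7 fragments in the control, and differences between animals were not measured.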

Other observations

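Some members below a mean of 1 FPKM differed between conditions, and they are named here after their values were seen. Ccl22, a macrophage and dendritic cell ligand of Ccr4, was at 0.0188 FPKM without light, 0.0985 after 3 h, 0.0577 after 24 h and 0.162 after 7 days, on about 1, 5, 4 and 15 fragments. Cxcl13, the B cell attractant, was at 0.310, 0.703, 0.699 and 0.490 FPKM in the same order, on about 9, 19, 26 and 24 fragments, and its counting intervals against the control included 1 at 3 h (0.988 to 5.75) and at 7 days (0.701 to 3.82). Cxcl17, a mucosal chemokine, was at 0.892, 0.691, 0.356 and 0.361 FPKM, on about 17, 12, 9 and 12 fragments, with the control highest. Cxcl9, an interferon-induced ligand like Cxcl10, was lowest at 24 h (0.0536 FPKM, against 0.162 in the control), on about 5 and 12 fragments.

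Pf4, the platelet CXC chemokine whose symbol falls outside the family pattern, was at 9.11 FPKM without light, 6.55 after 3 h, 9.06 after 24 h and 9.85 after 7 days, lowest at 3 h. Ppbp, another platelet chemokine, was listed at 0.101 to 0.322 FPKM.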
